A study of Mus musculus with 7 samples.

Results

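The cells described were taken to be macrophages of mouse liver because they carried complement C1q transcripts. They held no transcript of 3 Kupffer cell markers. The cells were chosen by their measured counts of these genes, in unique molecular identifiers (UMIs, counted transcript molecules) per cell barcode. A barcode needed 500 or more UMIs from 200 or more genes, with mitochondrial UMIs below 20%, then at least 5 UMIs of C1qa, C1qb and C1qc together, 0 of Clec4f, Vsig4 and Timd4, and 0 of Cd3d, Cd3e and Cd3g. This rule found 2124 cells among 62304 passing barcodes, 116 in the IL-2/CD25 samples and 2008 in the controls, and they are called the C1q gate. Barcodes with the same C1q and Cd3 limits but at least 1 UMI of Clec4f, Vsig4 or Timd4 served as the comparison and are called the Kupffer gate. It held 75 cells, 26 in the IL-2/CD25 samples and 49 in the controls. The gates were cut from the same counts as the values below, so the levels of C1q and of the 3 Kupffer markers, and any contrast of the gates, are descriptions.

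Every mouse sample came from a liver that had received plasmids for Nras and C-myc, a pair of oncogenes, by hydrodynamic tail vein injection, a fast high-volume injection that brings plasmid DNA into hepatocytes. The 4 IL-2/CD25 samples had in addition an expression plasmid for IL-2/CD25, named for the T cell growth factor interleukin 2 and for CD25, a subunit of its receptor. The 3 control samples were made without that plasmid. Tissue was taken 2 weeks after injection, and the labels call it HCC tissue in every sample, also in the IL-2/CD25 group. The labels give no strain, age or sex, name no promoter, do not say that each sample was a separate animal and do not say whether the controls had an empty plasmid in place of the third one. P-values therefore measure the spread between these samples.

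C1q is the recognition part of the classical complement pathway. It is built from the chains encoded by C1qa, C1qb and C1qc, binds antibodies, dying cells and other targets, and tissue macrophages are its main source. The liver holds resident Kupffer cells, which sit in the sinusoids and are marked in mouse by Clec4f, Vsig4 and Timd4. It also takes in monocytes from blood that turn into macrophages, and these switch on C1q as they mature. Macrophages clear dead cells, handle iron and lipid, present antigen on MHC class II and can either feed or restrain tumours.

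C1qb and C1qc lie close together on mouse chromosome 4, and the 300 bases around their start sites (250 before, 50 after, RefSeq, GRCm38.p6) are shown because these genes define the cells. Capitals mark the letters GAGGAA or their reverse complement TTCCTC, the core letters of sites bound by PU.1, a transcription factor that macrophages need and that Spi1 encodes. The C1qb window is chr4:136886151-136886450 and the C1qc window chr4:136892865-136893164, both on the minus strand.
C1qb: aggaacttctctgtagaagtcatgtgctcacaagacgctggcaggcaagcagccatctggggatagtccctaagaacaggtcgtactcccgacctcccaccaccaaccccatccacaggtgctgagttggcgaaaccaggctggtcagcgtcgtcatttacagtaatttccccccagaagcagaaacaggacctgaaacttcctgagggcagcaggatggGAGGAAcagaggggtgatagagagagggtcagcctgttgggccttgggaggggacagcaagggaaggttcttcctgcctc
C1qc: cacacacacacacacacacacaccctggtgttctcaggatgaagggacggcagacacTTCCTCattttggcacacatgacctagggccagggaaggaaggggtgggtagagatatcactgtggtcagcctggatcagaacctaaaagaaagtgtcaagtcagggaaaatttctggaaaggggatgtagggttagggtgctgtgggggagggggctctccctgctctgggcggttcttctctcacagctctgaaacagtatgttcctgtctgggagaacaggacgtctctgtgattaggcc
The match began 30 bases before the start site of C1qb and 193 before that of C1qc, and C1qa has no entry in the table used. In all, 9289 of 32851 windows of that table held these letters on either strand, which is 28.3%. A match is a description of letters and not of binding.

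Sequencing was deeper in the controls. Median UMIs per passing barcode were 3215 to 4477.5 in the IL-2/CD25 samples and 6253.5 to 8724 in the controls, and total UMIs were 37653600 to 47881379 and 76438139 to 181755269. At most 37 barcode sequences were shared by any pair of libraries. Within the C1q gate the summed UMIs were 134704 to 328717 in the IL-2/CD25 samples and 10876070 to 18175738 in the controls. Values per gene are its UMIs scaled to a common sum of UMIs (CPM), so most IL-2/CD25 values rest on few molecules.

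Not all barcodes of the gate in the controls looked like macrophages. Of the gate's control barcodes, 74, 33 and 138 had 0.1% or more of their UMIs in Krt8 and Krt18, keratins of epithelial and tumour cells, and they are called keratin-high. They were 8.75%, 6.30% and 21.6% of the gate's barcodes but 41.0%, 34.7% and 59.6% of its summed UMIs. The IL-2/CD25 gates held 0 such barcodes. Keratin-high barcodes were very large, with medians of 93417, 118773 and 69413 UMIs, against 12121.5, 13114 and 13259.5 UMIs in the remaining control cells of the gate. Their C1q level was low, 107, 134 and 180 CPM, against 3370, 3495 and 3196 CPM in the other control cells. For scale, control barcodes of B cells, which do not make C1q, held 33.6 to 55.7 CPM of C1q, and B cell barcodes of the IL-2/CD25 samples held 4.22 to 8.98 CPM. The summed level of 15 macrophage identity genes was 709.8 to 783 CPM in keratin-high barcodes, where the 10 tumour epithelium genes summed to 9613 to 10386 CPM. Every result on gene levels is therefore given with these barcodes left out, which leaves 1763 control cells and all 116 IL-2/CD25 cells, and the main counts are given both ways.

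**Figure D1:**
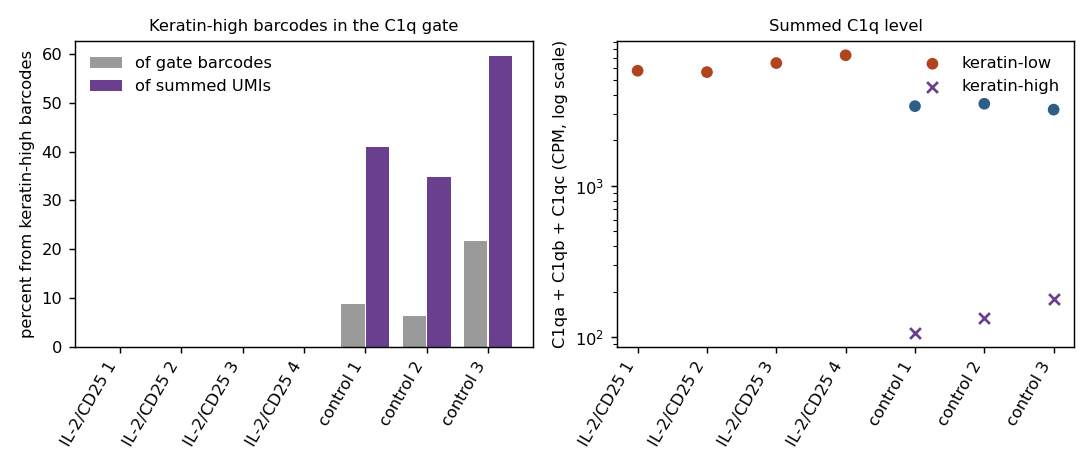
Left, share of the C1q gate's barcodes (grey) and of its summed UMIs (purple) that came from keratin-high barcodes, in percent, per sample. Right, summed C1qa, C1qb and C1qc in CPM on a log axis for keratin-low (dots) and keratin-high (crosses) barcodes; the crosses of the 3 controls lie at 107 to 180 CPM and the dots of all samples at 3196 to 7311 CPM.

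With keratin-high barcodes left out, macrophage identity genes were abundant as a sum in both groups, but not each of them was. With cells thinned to equal depth, as described below, Adgre1 was detected in 36.1% of IL-2/CD25 and 5.42% of control cells. Before thinning it was 58.7% and 27.4%. The monocyte gene Fn1 was detected in 21.7% and 82.9% of the thinned cells, and in 18.2% of control B cell barcodes. The sum therefore does not separate macrophages from monocytes. The summed macrophage identity genes were 13274 to 16732 CPM in the IL-2/CD25 samples and 11080.1 to 11377 CPM in the controls. Ptprc, which encodes the leukocyte protein CD45, was detected in 93.9%, 66.7%, 88.9% and 93.1% of IL-2/CD25 cells and in 93.9%, 95.5% and 95.6% of control cells, the lowest share being that of the sample with the lowest median depth, 4094.5 UMIs. Kupffer cell transcripts outside the 3 gate genes were present. The 20 genes of that programme summed to 922 to 3291 CPM in the C1q gate and 9753 to 12359 CPM in the Kupffer gate of IL-2/CD25 samples, and to 399.5 to 526 CPM and 855 to 1211 CPM in those gates of controls. The control Kupffer gate sums, unlike the others, include keratin-high barcodes. Leaving these out would take its cells from 16, 6 and 27 to 11, 6 and 19. Its summed UMIs would go from 256181, 87545 and 650652 to 104895, 87545 and 283501. By the sums given, the C1q gate was below the Kupffer gate in each group, and the IL-2/CD25 C1q gate overlapped the control Kupffer gate. Whether that overlap holds without keratin-high barcodes was not tested. Called doublets were kept and made up 0%, 0%, 8.33% and 6.90% of the IL-2/CD25 C1q gates. In the control C1q gates, with keratin-high barcodes included, they made up 14.1%, 9.16% and 13.3%.

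The edges of the rule were described without a test. Just inside, at exactly 5 C1q UMIs, lay 1, 0, 4 and 1 barcodes in the IL-2/CD25 samples and 55, 31 and 70 in the controls, and just outside, at 4, lay 3, 3, 2 and 1 and 93, 44 and 113. In the controls 52.7%, 35.5% and 68.6% of those at 5 and 40.9%, 31.8% and 81.4% of those at 4 were keratin-high. At exactly 1 UMI of the Kupffer markers lay 1, 1, 2 and 0 barcodes in the IL-2/CD25 samples and 7, 3 and 10 in the controls, so a single molecule decided the gate of 4 and 20 cells.

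The C1q genes themselves, used by the rule and so given with no test, were at 2224, 1923, 2634 and 2939 CPM in the IL-2/CD25 samples, against 1258, 1228 and 1159 CPM in the controls for C1qa. C1qb had 2038, 2294, 2284 and 2559.9 CPM in the IL-2/CD25 samples, against 1491, 1562 and 1470.0 CPM in the controls, and C1qc had 1515, 1440.2, 1573 and 1813 CPM in the IL-2/CD25 samples, against 620.4, 706 and 566 CPM in the controls. No IL-2/CD25 sample overlapped a control for any chain. The median cell gave 0.640%, 0.552%, 0.606% and 0.803% of its UMIs to C1q in the IL-2/CD25 samples, against 0.248%, 0.316% and 0.251% in the controls. The rule's limit of 5 is a count and control cells were deeper, so cells with a smaller C1q share could enter there. The smallest share was 0.0433%, 0.0578%, 0.0740% and 0.0579% in the IL-2/CD25 samples, against 0.00644%, 0.00995% and 0.0119% in the controls. What part of the C1q difference comes from this was not tested.

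Cells inside the control gate differed among themselves along this C1q share. Cells were thinned at random to 2000 UMIs each, which left out 16 IL-2/CD25 and 44 control cells below that depth, and split into those with under 0.1% of UMIs in C1q (351 cells), 0.1 to 0.5% (935) and 0.5% or more (433). Vcan, a matrix proteoglycan of young monocytes, was detected in 47.1% ± 2.12, 35.4% ± 0.10 and 20.7% ± 2.42 of cells (mean ± SD of 3 controls), in that order. Ccr2, the receptor that brings monocytes out of bone marrow, was detected in 70.8% ± 2.04, 65.1% ± 2.51 and 52.9% ± 10.9. The share with these monocyte genes was lower where C1q was higher. Apoe, the lipid carrier of mature macrophages, ran the other way with 49.6% ± 3.16, 60.6% ± 3.96 and 84.4% ± 2.65, as did the mannose receptor Mrc1 with 29.9% ± 6.85, 40.6% ± 2.78 and 55.7% ± 2.92 and arginase Arg1 with 46.8% ± 5.68, 61.8% ± 6.48 and 72.9% ± 4.59. In control B cell barcodes thinned alike, detection was 4.96% for Vcan, 5.77% for Ccr2, 4.47% for Mrc1 and 4.35% for Arg1. For Apoe it was 48.3%, so the Apoe share of cells with the least C1q was at the background. These are descriptions, since the bins were cut from the same cells.

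The first comparison asked whether the cells were as frequent in livers with the IL-2/CD25 plasmid. The C1q gate made up 0.456%, 0.205%, 0.345% and 0.279% of passing barcodes in the IL-2/CD25 samples (33, 18, 36 and 29 cells), against 8.89%, 7.21% and 7.37% in the controls (846, 524 and 638 cells). The groups did not overlap, and the mean share was 0.321% ± 0.106 (SD, n = 4) and 7.82% ± 0.925 (SD, n = 3), a 24.4-fold lower share in IL-2/CD25 livers. The exact two-sided permutation test over 35 splits gave p = 0.0286, the smallest value that 4 against 3 samples allow. Without keratin-high barcodes the control share was 6.88% ± 1.17 and the ratio 21.4-fold, with the same exact p. The share is relative to all barcodes of a library, so it also depends on how many other cells were captured: of barcodes with at least 1 UMI of the leukocyte gene Ptprc it was 0.330% ± 0.108 in the IL-2/CD25 samples and 9.80% ± 1.02 in the controls.

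Kupffer gate cells were 0.0733% ± 0.0241 of barcodes in the IL-2/CD25 samples and 0.187% ± 0.116 in the controls, a difference with exact permutation p = 0.0857. This share depended on the setting: the exact p was 0.0286 among Ptprc barcodes or with 10 C1q UMIs required, and 0.543 with barcodes thinned before the gate, where the means were 0.0503% and 0.0701%. Of both gates together, the C1q gate held 82.5%, 69.2%, 85.7% and 85.3% in the IL-2/CD25 samples, against 98.1%, 98.9% and 95.9% in the controls. The means were 80.7% ± 7.77 and 97.7% ± 1.53 (exact permutation p = 0.0286). The cells thus made up a smaller part of C1q macrophages in IL-2/CD25 livers, where the remaining macrophages more often had a Kupffer transcript. With barcodes thinned to 2000 UMIs before gating, or with 10 C1q UMIs required, the exact p was 0.0571.

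**Figure D2:**
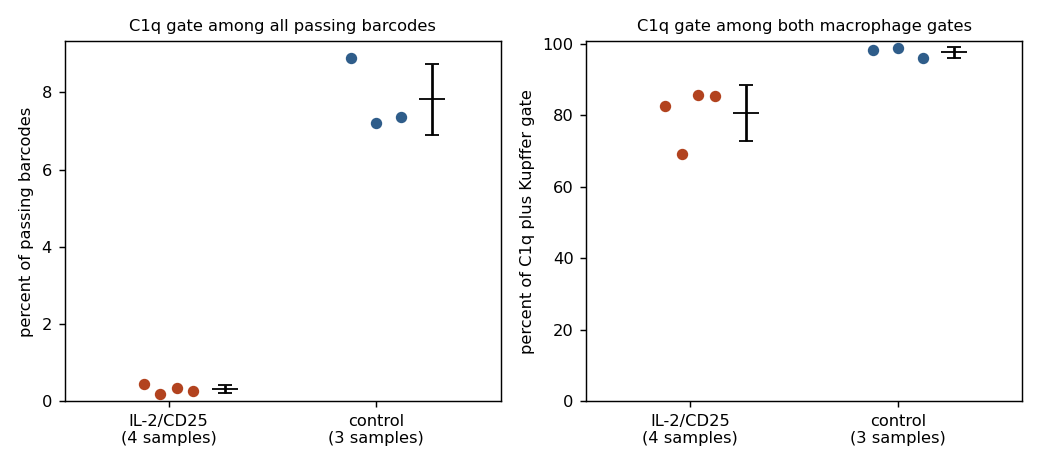
Left, C1q gate as a percentage of passing barcodes; right, C1q gate as a percentage of both macrophage gates, one dot per sample with mean and SD beside the dots. IL-2/CD25 samples lie at 0.205 to 0.456% on the left, below all controls at 7.21 to 8.89%.

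The second comparison asked which genes differed inside the C1q gate between IL-2/CD25 and control livers. UMIs were summed per sample and tested with edgeR's quasi-likelihood test, Benjamini-Hochberg adjusted over all tested genes. With keratin-high barcodes left out, 1312 genes were higher in IL-2/CD25 and 1337 lower at an adjusted p under 0.05, of 5253 tested. That is 50.4% of genes (25.0% higher and 25.5% lower), and the counts below are read against these shares. The low-count filter keeps a gene with enough CPM in a set number of samples, whichever group they belong to. A gene low in a whole group was tested only because it was high in the other. Its direction was thus largely set by the filter. The 4 IL-2/CD25 samples lay above all controls for 25.7% of tested genes and below all controls for 24.9%. With all barcodes of the rule the counts were 1643 and 1766 of 5503 genes (61.9%, with 29.9% higher and 32.1% lower). Of the 3110 genes called there and tested without keratin-high barcodes, 3056 kept their direction and 2263 were called, 2260 of them in the same direction. Among the 769 genes called without keratin-high barcodes and also tested after each cell was thinned to 2000 UMIs, 762 had the same direction and 625 were called in it.

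Ms4a7, a membrane protein of monocyte-derived and tissue macrophages, showed the largest rise of the genes named by the rule. It had 246, 259.8, 291 and 252 CPM in the IL-2/CD25 samples, against 2.39, 2.39 and 4.22 CPM in the controls, an 84.2-fold difference (log2 difference 6.40, SE 0.20, edgeR adjusted p = 6.65e-10). No sample of either group came near the other. At 2000 UMIs per cell Ms4a7 was detected in 30.9% ± 8.83 of IL-2/CD25 cells and 0.567% ± 0.139 of control cells, in 50.4% and 2.25% of the same cells before thinning and in 0% of thinned B cell barcodes of both groups, whose own median depths were 2614 to 3131 and 1802 to 2481 UMIs. Its promoter window, shown because it leads the list, is chr19:11336097-11336396 on the minus strand, with GAGGAA starting at base 44 after the start site.
Ms4a7: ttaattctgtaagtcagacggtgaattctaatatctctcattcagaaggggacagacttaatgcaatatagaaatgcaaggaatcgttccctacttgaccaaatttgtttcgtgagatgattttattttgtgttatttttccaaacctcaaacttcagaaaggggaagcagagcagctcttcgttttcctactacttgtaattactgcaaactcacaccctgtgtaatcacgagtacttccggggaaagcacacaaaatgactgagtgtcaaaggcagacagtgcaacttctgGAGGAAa
These letters were found in 6 of 10 windows of the named higher genes, which had an entry for 9 of 12 genes, and in 6 of 12 windows of the named lower genes, against 28.3% of all windows.

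Several of the other named higher genes are also known from Kupffer cells or other resident macrophages. Hpgd, which breaks down prostaglandins, had 116, 178, 312 and 129.7 CPM in the IL-2/CD25 samples, against 3.28, 1.55 and 3.68 CPM in the controls (58.7-fold). Slc40a1, the iron exporter ferroportin, had 139.9, 683, 628 and 168 CPM in the IL-2/CD25 samples, against 7.35, 7.6 and 16.8 CPM in the controls (34-fold, log2 difference 5.09, SE 0.52, edgeR adjusted p = 7.40e-06). All 4 IL-2/CD25 samples were above all controls for both genes, and replicates 2 and 3 held more of both than replicates 1 and 4. Spic, a transcription factor of iron-recycling macrophages, averaged 60.4 ± 48.5 CPM in the IL-2/CD25 samples and 2.78 ± 1.97 CPM in the controls, and Igf1, a growth factor, 138 ± 50.4 against 6.88 ± 2.88 CPM. Cd72, a C-type lectin receptor, averaged 141 ± 35.6 CPM in the IL-2/CD25 samples and 2.94 ± 0.328 CPM in the controls, and the prostaglandin D synthase Hpgds 153 ± 43 against 5.53 ± 0.281 CPM. The endosomal receptor Tlr12 (64.1 ± 23.5 against 1.42 ± 0.407 CPM), the DNA-degrading enzyme Dnase1l3 (74.7 ± 54.6 against 1.74 ± 0.134 CPM), the MHC class Ib gene H2-M2 (87.4 ± 69.5 against 2.84 ± 1.98 CPM) and the adhesion molecule Cadm1 (166 ± 72.3 against 7.71 ± 3.23 CPM) completed the higher set with the chemokine gene Cxcl9.

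The named lower genes were of other kinds. Chil3, a chitinase-like protein of monocytes and alternatively activated macrophages, had 97.3, 7.42, 16.6 and 21 CPM in the IL-2/CD25 samples, against 1065, 1639.9 and 1443 CPM in the controls (log2 difference -5.09, SE 0.40, edgeR adjusted p = 8.68e-07). Vcan had 21.3, 0, 20.8 and 0 CPM in the IL-2/CD25 samples, against 350.3, 329 and 407 CPM in the controls, with 2 IL-2/CD25 samples at 0. Prtn3, a granule protease of myeloid precursors, averaged 4.31 ± 3.11 CPM in the IL-2/CD25 samples and 216 ± 20.8 CPM in the controls, and Rnase2a, a ribonuclease of the eosinophil-associated family, was at 0 in every IL-2/CD25 sample against 146, 187 and 138 CPM in the controls. Against a floor of 3 counts over the IL-2/CD25 group Rnase2a was at least 51.2-fold lower. The leukotriene B4 receptor Ltb4r1 (5.95 ± 4.82 against 176 ± 6.03 CPM), the metallothionein Mt2 (7.82 ± 9.18 against 235 ± 13.2 CPM) and the oxygen sensor Egln3 (1.8 ± 2.13 against 104 ± 13.1 CPM) were also lower. The proliferation genes Birc5, Pclaf, Top2a and Ube2c are taken up with their list. Slpi, a protease inhibitor, was lower with 9.13, 0, 8.32 and 0 CPM in the IL-2/CD25 samples, against 33.8, 33.6 and 306 CPM in the controls, but 1 control held most of its signal, and leaving out any IL-2/CD25 sample moved its adjusted p to 0.0738 to 0.0943.

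With the keratin-high barcodes kept, the genes with the largest falls became others. They were Cdkn2a, Crct1, Cda, Prkg2, R3hdml, Aqp8, Hspb1, Bco1, Plat, Ube2c, Bex1 and Rrm2, of which only Ube2c was also named without these barcodes. Of the 12 named higher genes, 11 were the same with and without them.

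**Figure D3:**
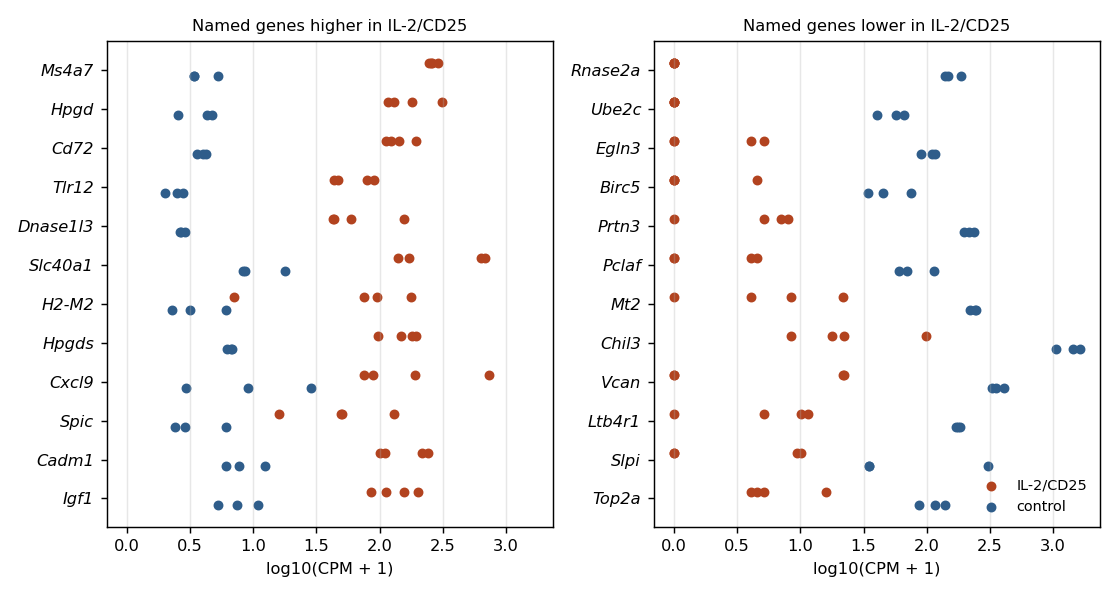
log10(CPM + 1) of the 12 named higher and 12 named lower genes in the C1q gate with keratin-high barcodes left out, one dot per sample (orange IL-2/CD25, blue control). Groups do not overlap for any gene shown, which the naming rule required; Ms4a7 lies at 246 to 291 CPM in IL-2/CD25 and 2.39 to 4.22 CPM in controls.

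Genes of macrophage identity rose or did not pass. Of 15 genes in the files, 15 were tested, 10 rose, 0 fell and 5 did not pass, with a median log2 difference of 0.67. The median over all tested genes was 0.00. Csf1r, the receptor for the macrophage growth factor CSF1, had 958, 913, 1132 and 1034 CPM in the IL-2/CD25 samples, against 308, 281 and 268 CPM in the controls (log2 difference 1.76, SE 0.13, edgeR adjusted p = 7.63e-07). Adgre1, which encodes F4/80, had 256, 267, 341 and 263 CPM in the IL-2/CD25 samples, against 30.3, 27 and 51.3 CPM in the controls (log2 difference 2.90, SE 0.23, edgeR adjusted p = 9.28e-07). Both genes were higher in 4 of 4 IL-2/CD25 samples than in any control. The efferocytosis receptor Mertk averaged 183 ± 47.6 CPM in the IL-2/CD25 samples and 64.4 ± 4.62 CPM in the controls and the transcription factor Maf 526 ± 94.9 against 126 ± 23.6 CPM. Cd68 (306 ± 48.8 against 284 ± 21.5 CPM), Lyz2 (6075 ± 1553 against 5339.5 ± 445 CPM), Tyrobp, Fcgr1 and Spi1 did not pass. Cd14 passed only narrowly and kept its call in 1 of 7 fits that left out a sample.

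Genes of monocyte origin mostly fell, with Ccr2, Cx3cr1 and Nr4a1 as the members that rose. Of 20 genes in the files, 17 were tested, 3 rose, 11 fell and 3 did not pass, with a median log2 difference of -1.17. Fn1, fibronectin, had 715, 89.1, 270.5 and 98.2 CPM in the IL-2/CD25 samples, against 2532, 2104 and 2681 CPM in the controls (log2 difference -3.02, SE 0.47, edgeR adjusted p = 1.89e-04). S100a6 averaged 471 ± 86.6 CPM in the IL-2/CD25 samples and 2736 ± 499 CPM in the controls, S100a4 189 ± 91.8 against 552 ± 85.2 CPM and Plac8 157 ± 91.2 against 370.0 ± 126 CPM. All 4 genes had every IL-2/CD25 sample below every control. Ly6c2, the classical monocyte marker, was 23.9 ± 10.9 against 54.8 ± 27 CPM and did not pass. Ccr2 was 1023 ± 112 against 726 ± 45.1 CPM, called higher with a log2 difference of 0.44, but it kept that call in 1 of 7 fits that left out a sample. At 2000 UMIs per cell Ccr2 was detected in 62.1% ± 6.72 of IL-2/CD25 cells and 63.1% ± 3.65 of control cells, against 4.84% and 5.77% of B cell barcodes, and in 72.5% and 90.1% before thinning. Cx3cr1, the fractalkine receptor, rose 8.15-fold with 332, 327, 487 and 323 CPM in the IL-2/CD25 samples, against 57.2, 37.9 and 33.9 CPM in the controls. At 2000 UMIs per cell Cx3cr1 was detected in 38.7% ± 9.28 of IL-2/CD25 cells and 5.51% ± 0.56 of control cells, against 1.09% and 0% of B cell barcodes, and in 53.5% and 13.4% before thinning. Vcan was detected in 0.833% ± 1.67 of IL-2/CD25 cells and 34% ± 0.922 of control cells, against 0.0710% and 4.96% of B cell barcodes, and in 4.2% and 65.9% before thinning.

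Most tested genes of the Kupffer programme outside the 3 gate genes rose. Of 20 genes in the files, 9 were tested, 7 rose, 0 fell and 2 did not pass, with a median log2 difference of 3.77. The remaining 11 genes, among them Marco, Folr2 and Cd163, had too few counts. Members with low CPM in the controls, such as Nr1h3, Slc40a1, Hpgd and Spic, passed the low-count filter only through the IL-2/CD25 samples. They could hardly have come out lower, so these counts are no test of the list. Nr1h3, the lipid-sensing receptor LXR alpha, had 94.3, 238, 199.7 and 228 CPM in the IL-2/CD25 samples, against 13.6, 8.87 and 15.5 CPM in the controls (log2 difference 3.77, SE 0.29, edgeR adjusted p = 7.86e-07). Id3, a regulator of Kupffer cell identity, had 252, 549, 678 and 196 CPM in the IL-2/CD25 samples, against 45.5, 51.2 and 61.3 CPM in the controls. Cd5l, a secreted scavenger protein, had 6.08, 186, 512 and 137 CPM in the IL-2/CD25 samples, against 3.58, 0.422 and 34.6 CPM in the controls: 1 IL-2/CD25 sample lay among the controls, and the gene lost its call without IL-2/CD25 replicate 3. Vcam1, an adhesion molecule of Kupffer cells, had 435, 765, 553 and 459 CPM in the IL-2/CD25 samples, against 36.3, 20.4 and 50 CPM in the controls (14.5-fold). The levels of Cd5l and Slc40a1 in the IL-2/CD25 C1q gate lay under those of the IL-2/CD25 Kupffer gate, 3334 and 2215 CPM.

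Lipid-associated genes, a set known from macrophages of fatty and injured tissue, moved in both directions. Of 20 genes in the files, 20 were tested, 10 rose, 6 fell and 4 did not pass, with a median log2 difference of 0.72. Apoe had 12439, 14677, 16711 and 16113 CPM in the IL-2/CD25 samples, against 1661, 1236 and 1366 CPM in the controls, a 10.1-fold rise (log2 difference 3.34, SE 0.18, edgeR adjusted p = 6.04e-08), and was the most abundant of these transcripts. The lysosomal proteases Ctsb (3773 ± 341 against 1083 ± 26.6 CPM) and Ctsd (1999 ± 465 against 846 ± 109.7 CPM) rose, as did the lipid receptor Trem2 with 139.9, 304, 171 and 182 CPM in the IL-2/CD25 samples, against 80.1, 78.7 and 82.7 CPM in the controls. Gpnmb, a lysosomal glycoprotein, had 109.5, 713, 216 and 80.7 CPM in the IL-2/CD25 samples, against 15.6, 25.2 and 12.4 CPM in the controls. The groups did not overlap for these 5 genes. Spp1, osteopontin, fell with 237, 22.3, 99.9 and 45.6 CPM in the IL-2/CD25 samples, against 408, 290.3 and 530.1 CPM in the controls (log2 difference -1.90, SE 0.40, edgeR adjusted p = 0.00185). Outside both gates Spp1 averaged 144 and 2058 CPM in IL-2/CD25 and control barcodes, and it was detected in 1.59% and 33.9% of B cell barcodes, against 10.4% ± 7.29 of IL-2/CD25 cells and 38.6% ± 11.6 of control cells in the gate at 2000 UMIs (20.9% and 85.8% before thinning). The control share of Spp1 was thus near that of cells which should lack it. The fatty acid carrier Fabp5 (585 ± 227 against 1233 ± 129 CPM), Lgals3 (972 ± 371 against 1998 ± 24.5 CPM) and the lipid droplet protein Plin2 (254 ± 76.6 against 468 ± 145 CPM) fell, and their levels outside the gates were also lower in IL-2/CD25 samples (63.8 and 846 CPM for Fabp5 in IL-2/CD25 and control samples).

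Complement components and receptors for C1q changed in part. Of 20 genes in the files, 13 were tested, 6 rose, 2 fell and 5 did not pass, with a median log2 difference of 0.36. Itgam, the CR3 integrin chain CD11b, fell with 79.1, 37.1, 125 and 70.1 CPM in the IL-2/CD25 samples, against 667, 750.3 and 640.4 CPM in the controls (log2 difference -3.14, SE 0.21, edgeR adjusted p = 3.54e-07). Cfp, properdin, which stabilises the alternative pathway convertase, fell with 173, 156, 183 and 140.3 CPM in the IL-2/CD25 samples, against 338, 321 and 337 CPM in the controls. Lair1 (218 ± 50.8 against 97.6 ± 19.1 CPM), Lrp1 (428 ± 32.4 against 215 ± 12.6 CPM) and Cd93 (226 ± 58.9 against 82.6 ± 2.32 CPM), receptors linked to C1q binding or uptake, rose. The receptor of the anaphylatoxin C3a, C3ar1 (260.3 ± 36.7 against 172 ± 30.4 CPM), was called higher, but lost the call without control replicate 1 or 3 or IL-2/CD25 replicate 1 or 4. C5ar1 and calreticulin, Calr, did not pass. Genes of phagocytosis mostly rose. Of 22 genes in the files, 21 were tested, 12 rose, 4 fell and 5 did not pass, with a median log2 difference of 0.94. Axl, a receptor that recognises dying cells through Gas6, had 581, 661, 678 and 565 CPM in the IL-2/CD25 samples, against 269, 254 and 239 CPM in the controls (log2 difference 1.22, SE 0.13, edgeR adjusted p = 7.83e-06). Stab1, a scavenger receptor, averaged 147 ± 23.3 CPM in the IL-2/CD25 samples and 24.5 ± 3.75 CPM in the controls, and the activating antibody receptor Fcgr4 306 ± 82 against 147 ± 28.2 CPM. Mrc1 (506 ± 113 against 409 ± 36.8 CPM), Msr1 and the inhibitory Fcgr2b did not pass.

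Most tested genes of antigen presentation and of the interferon gamma response rose. Of 11 genes in the files, 9 were tested, 5 rose, 2 fell and 2 did not pass, with a median log2 difference of 1.08. H2-Aa had 7520.1, 7001, 6729 and 8115 CPM in the IL-2/CD25 samples, against 2817, 2426 and 2183 CPM in the controls (log2 difference 1.51, SE 0.15, edgeR adjusted p = 6.12e-06). Its chaperone Cd74 averaged 18281 ± 1625 CPM in the IL-2/CD25 samples and 7352 ± 891 CPM in the controls and the class II master regulator Ciita 328 ± 60.9 against 115 ± 24.8 CPM. Ifi30, a thiol reductase of antigen processing, fell (644 ± 104 against 1202 ± 13.7 CPM). For the interferon gamma response, of 26 genes in the files, 15 were tested, 13 rose, 1 fell and 1 did not pass, with a median log2 difference of 1.37. Cxcl9, a T cell attracting chemokine, had 727, 74.2, 87.4 and 189 CPM in the IL-2/CD25 samples, against 8.05, 27.7 and 1.91 CPM in the controls (log2 difference 4.55, SE 0.78, edgeR adjusted p = 3.89e-04), with replicate 1 far above the other IL-2/CD25 samples. The class I genes B2m (2193 ± 236 against 1014 ± 267 CPM) and H2-K1 (1524 ± 159 against 563 ± 114 CPM) rose, and they were higher outside the gates as well (2039 and 619 CPM for B2m in IL-2/CD25 and control samples). Psmb8, an immunoproteasome subunit, fell (223 ± 21 against 314 ± 4.57 CPM). Few type I interferon genes could be tested. Of 22 genes in the files, 6 were tested, 1 rose, 0 fell and 5 did not pass, with a median log2 difference of 0.42, the one that rose being Bst2 (152 ± 32.1 against 99.1 ± 18.8 CPM). Bst2 kept its call in 1 of 7 fits that left out a sample and was not called with keratin-high barcodes kept, where Irf7 and Ifih1 were the genes called.

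Most tested inflammatory mediators rose. Of 20 genes in the files, 11 were tested, 8 rose, 0 fell and 3 did not pass, with a median log2 difference of 1.44. Il1b, the cytokine interleukin 1 beta, had 2461, 1759, 2222 and 901 CPM in the IL-2/CD25 samples, against 162, 180.5 and 252 CPM in the controls (log2 difference 3.15, SE 0.30, edgeR adjusted p = 4.16e-06). At 2000 UMIs per cell it was detected in 64.1% ± 23.6 of IL-2/CD25 cells and 22.4% ± 3.81 of control cells, against 4.37% and 5.61% of B cell barcodes, and in 80.2% and 49.2% before thinning. Il1a (67 ± 22.8 against 9.4 ± 4.35 CPM), Ptgs2, the inducible cyclooxygenase (121 ± 59.4 against 44.1 ± 7.93 CPM), and the costimulatory Cd86 (202 ± 51.6 against 60.5 ± 4.94 CPM) rose. Ccl5 rose with 663, 379, 1502 and 1326 CPM in the IL-2/CD25 samples, against 139, 58.1 and 38.1 CPM in the controls, yet barcodes outside both gates held 11632 CPM in IL-2/CD25 samples and 365 in controls, and what part of it came from there was not tested. Tnf (37.6 ± 18.7 against 33.7 ± 9.8 CPM) and Cxcl2 did not pass, and 9 genes including Nos2, Il6 and Il12b had too few counts.

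Most tested genes of repair and immune suppression did not pass, and those called went in both directions. Over all tested genes 25.0% were higher and 25.5% lower. Of 23 genes in the files, 19 were tested, 6 rose, 2 fell and 11 did not pass, with a median log2 difference of -0.05. Arg1, which depletes arginine and is a marker of suppressive macrophages, fell with 161, 29.7, 0 and 35.1 CPM in the IL-2/CD25 samples, against 1302, 1455 and 1082 CPM in the controls, 20.5-fold (log2 difference -4.36, SE 0.49, edgeR adjusted p = 1.48e-05). At 2000 UMIs per cell Arg1 was detected in 6.97% ± 5.46 of IL-2/CD25 cells and 61.5% ± 6.46 of control cells, against 0.658% and 4.35% of B cell barcodes, and in 13% and 79.7% before thinning. Selenop, a selenium carrier, had 1004, 1359, 1082 and 793 CPM in the IL-2/CD25 samples, against 98, 62.7 and 125 CPM in the controls, and the membrane protease Mmp14 averaged 267 ± 39.5 CPM in the IL-2/CD25 samples and 44.1 ± 14.2 CPM in the controls. Vegfa (70.5 ± 36.1 against 107 ± 36 CPM), Tgfb1 (434 ± 42.8 against 387 ± 7.95 CPM) and Cd274, which encodes PD-L1 (77.2 ± 28.6 against 82.9 ± 15.8 CPM), did not pass. Iron and haem genes rose in part. Of 14 genes in the files, 10 were tested, 5 rose, 1 fell and 4 did not pass, with a median log2 difference of 0.31. Lcn2, which binds iron-carrying siderophores, fell (1.8 ± 2.13 against 236 ± 29.5 CPM), and barcodes outside the gates held 75.8 and 938 CPM in IL-2/CD25 and control samples. The ferritin gene Fth1 (9184 ± 1423 against 8781 ± 473 CPM) and Hmox1, which opens the haem ring (240.5 ± 151 against 265 ± 16.1 CPM), did not pass.

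Nearly all tested genes of glycolysis, hypoxia and proliferation fell. Of 17 genes in the files, 16 were tested, 0 rose, 15 fell and 1 did not pass, with a median log2 difference of -2.28. Slc2a1, the glucose transporter GLUT1, had 33.5, 37.1, 37.4 and 31.6 CPM in the IL-2/CD25 samples, against 191, 209 and 146 CPM in the controls (log2 difference -2.46, SE 0.22, edgeR adjusted p = 2.42e-06). Gapdh had 764, 468, 520.1 and 659 CPM in the IL-2/CD25 samples, against 3239.6, 3438 and 3265 CPM in the controls, and Ldha, which makes lactate, averaged 316 ± 26.1 CPM in the IL-2/CD25 samples and 1299 ± 90.6 CPM in the controls. Hif1a, the hypoxia-inducible factor, averaged 189 ± 63.6 against 488 ± 38 CPM. The groups did not overlap for these genes. Levels outside both gates were lower in IL-2/CD25 samples too, with 375 and 2542 CPM of Gapdh and 218 and 1588 CPM of Ldha in IL-2/CD25 and control samples. For proliferation, of 18 genes in the files, 12 were tested, 0 rose, 10 fell and 2 did not pass, with a median log2 difference of -1.94. Mki67, Top2a, Ube2c, Birc5 and Pclaf were low in the IL-2/CD25 samples and passed the low-count filter only through the controls. They could hardly have come out higher, so these counts are no test of the list. Mki67 had 15.2, 0, 4.16 and 24.5 CPM in the IL-2/CD25 samples, against 127, 82.8 and 154 CPM in the controls (log2 difference -3.27, SE 0.45, edgeR adjusted p = 7.72e-05), and Top2a, a topoisomerase of dividing cells, 3.04, 14.8, 4.16 and 3.51 CPM in the IL-2/CD25 samples, against 115, 86.4 and 139 CPM in the controls. Ube2c, an enzyme of mitotic exit, was at 0 in all 4 IL-2/CD25 samples and at 56.6, 39.1 and 65.2 CPM in the controls, at least 17.8-fold lower against the same floor. Birc5, encoding survivin, averaged 0.877 ± 1.75 CPM in the IL-2/CD25 samples and 50.5 ± 21.4 CPM in the controls, and the replication factor Pclaf 1.64 ± 1.9 against 81.1 ± 29.1 CPM.

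Transcripts of the interleukin 2 receptor were at low levels in these cells. Il2ra, which encodes CD25, had 0, 0, 0 and 3.51 CPM in the IL-2/CD25 samples, against 0.795, 1.13 and 0.545 CPM in the controls, which is 1 UMI in the IL-2/CD25 cells, and was not tested. The common gamma chain Il2rg had 66.9, 29.7, 66.6 and 77.1 CPM in the IL-2/CD25 samples, against 43, 37.4 and 32.6 CPM in the controls and was called higher, although 1 IL-2/CD25 sample lay below all controls. It kept that call in 3 of 7 fits that left out a sample. Il2rb, the beta chain, had 27.4, 22.3, 70.7 and 116 CPM in the IL-2/CD25 samples, against 4.37, 6.05 and 1.63 CPM in the controls and was filtered out of the test, while barcodes outside the gates held 849 and 29.7 CPM in IL-2/CD25 and control samples. Of 17 genes in the files, 10 were tested, 4 rose, 0 fell and 6 did not pass, with a median log2 difference of 0.40. Csf2ra (306 ± 38.4 against 259 ± 16.1 CPM) and Csf2rb, the receptor chains for GM-CSF, did not pass. The cytokine feedback gene Socs3 rose (204 ± 39.6 against 101 ± 13 CPM), and Cish, a STAT5 target, did not pass (95.3 ± 24.4 against 121 ± 11.5 CPM).

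**Figure D4:**
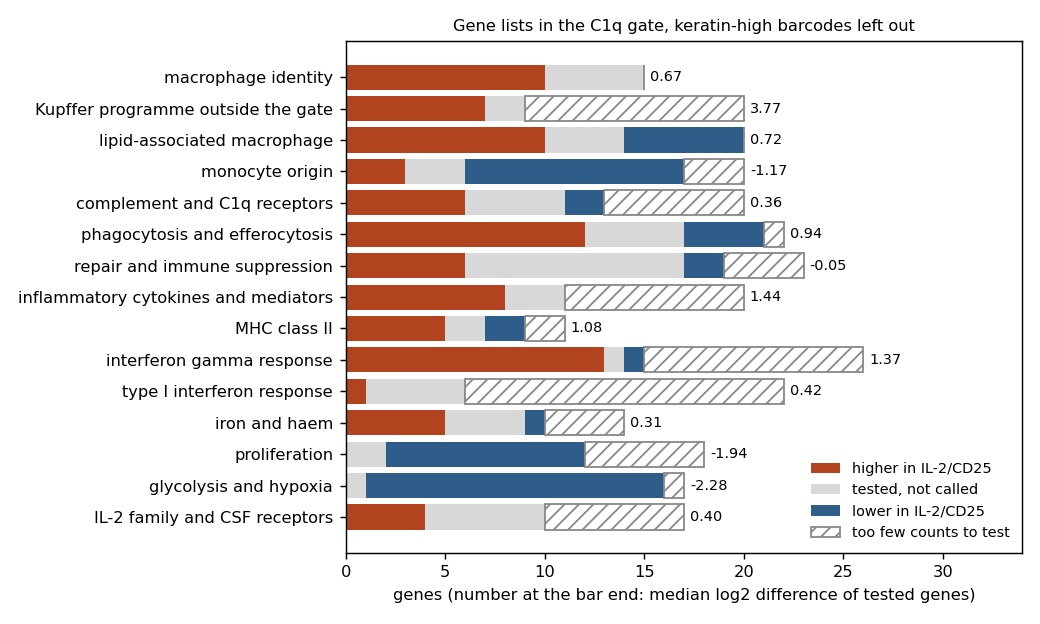
Number of genes per list in the C1q gate with keratin-high barcodes left out: higher in IL-2/CD25 (orange), tested but not called (grey), lower (blue) and too few counts to test (hatched), with the median log2 difference of the tested genes at the bar end. Glycolysis and proliferation lists hold no higher gene, and 25.0% of all tested genes were higher and 25.5% lower. Genes low in a whole group were tested only through the other group, so the low-count filter largely set their direction.

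Transcripts of other cells moved with the groups inside the gate. Summed levels of the 9 NK cell and ILC1 genes were 267 to 1498 CPM in the IL-2/CD25 gates and 24.8 to 77.2 CPM in the control gates, and the 4 tested, Klrk1, Gzma, Nkg7 and Prf1, were all higher. The 8 B and plasma cell genes summed to 149 to 484 CPM and 11.1 to 30.3 CPM, with 3 of 3 tested higher, and the 9 T cell genes to 76.1 to 193 CPM and 10.8 to 18.4 CPM, with 1 of 1 tested higher. The tested genes of these lists were low in the control gates and could not pass the low-count filter without the IL-2/CD25 samples. Their direction was largely set by that, so these counts are no test. Over all tested genes 25.0% were higher and 25.5% lower. The 10 dendritic cell genes summed to 91.3 to 186 CPM and 27.7 to 40 CPM. The 10 neutrophil genes ran the other way, 186 to 632 CPM and 2603 to 3621 CPM, with 4 of 5 tested lower and Csf3r higher. So did the 10 tumour epithelium genes, 105 to 156 CPM and 290.2 to 713 CPM, even with keratin-high barcodes left out. The 10 hepatocyte genes summed to 21.3 to 279 CPM and 20.7 to 62.5 CPM, and the 8 endothelial genes to 30.4 to 779 CPM and 30.6 to 64.3 CPM. The 6 erythroid genes summed to 0 to 95.7 CPM and 4.07 to 44.8 CPM, the 6 basophil and mast cell genes to 0 to 3.51 CPM and 4.08 to 12.3 CPM, and the 8 stellate cell and fibroblast genes to 3.04 to 14.8 CPM and 8.75 to 21.2 CPM. Gzma, a granzyme, had 176, 119, 869.7 and 666 CPM in the IL-2/CD25 samples, against 17, 32.9 and 5.72 CPM in the controls in the gate, and 4708 and 146 CPM outside it in IL-2/CD25 and control samples. In the IL-2/CD25 gates Ly6g, Hnf4a, Col3a1, Lrat, Rgs5, Acta2, Cldn4, Cdkn2a, Sox9 and all basophil and mast cell genes but 1 were at 0, and in the control gates Cps1 was. Each T, NK, B, dendritic and endothelial cell gene had at least 1 UMI in both groups. The part of these transcripts in the gate's results was not tested.

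The third comparison set the C1q gate beside the Kupffer gate within samples. The rule separated these gates by Clec4f, Vsig4 and Timd4, so the contrast is a description. Only control replicates 1 and 3 had 10 cells in each gate, and the fit on these samples called 37 genes higher (0.279%) and 115 lower (0.866%) of 13277, or 1.14%. That fit kept keratin-high barcodes. Its named genes highest in the C1q gate by fold were the chemokine gene Ccl17 (log2 4.24), Qpct (2.62) and Hspa1b (2.54), and Mgl2 (1.92) was also named. Lowest were Bgn (-5.05), Folr2 (-4.86) and Cd5l (-4.61). With at least 5 cells per gate and keratin-high barcodes left out, all 7 samples entered and 58 genes were higher (1.88%) and 83 lower (2.69%) in the C1q gate, of 3086 tested, or 4.57%. C1q gate cells held more of the monocyte receptor Ccr2 and of MHC class II than Kupffer gate cells did, and less of genes tied to Kupffer cells and iron export.

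Ccr2 averaged 1023 CPM in the C1q gate and 49.4 CPM in the Kupffer gate of IL-2/CD25 samples, and 726 and 319.5 CPM in those gates of controls (log2 2.41). H2-Aa averaged 7341 CPM in the C1q gate and 3525 CPM in the Kupffer gate of IL-2/CD25 samples, and 2475 and 1587 CPM in those gates of controls (log2 1.02), and 6 of 9 tested class II genes were called higher. Higher in the C1q gate were also Nr4a2 and Egr2, immediate early transcription factors (log2 1.97 and 1.32), S100a4 (1.5), the thymosin gene Tmsb10 (1.48), Lta4h, which makes leukotriene B4 (1.37), Fcgr2b (1.57), Cbfa2t3 (1.45), Sulf2 (1.28), Emb (1.24), Limd1 (1.20) and Coro1a (1.19). Lower were Folr2 (log2 -5.31), the apolipoprotein gene Apoc1 (-5.27), Cd5l (-4.85), the ficolin gene Fcna (-3.81), Slc40a1 (-3.26), Fabp7 (-3.15), Il18 (-3.02), Igf1 (-2.74), Vcam1 (-2.23), Serpinb6a (-2.19), Clec1b (-2.15) and St3gal5 (-2.11). Of the Kupffer programme outside the gate genes, 8 of 10 tested were lower and 0 higher, with a median log2 difference of -2.33 against 0.04 over all genes. Slc40a1 averaged 405 CPM in the C1q gate and 2215 CPM in the Kupffer gate of IL-2/CD25 samples, and 10.6 and 202 CPM in those gates of controls, and Vcam1 553 CPM in the C1q gate and 1787 CPM in the Kupffer gate of IL-2/CD25 samples, and 35.6 and 384 CPM in those gates of controls. The IL-2/CD25 C1q gate held more of both genes, on average, than the control Kupffer gate. Ctsb, a lysosomal protease, averaged 3773 CPM in the C1q gate and 8952 CPM in the Kupffer gate of IL-2/CD25 samples, and 1083 and 3169 CPM in those gates of controls.

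**Figure D5:**
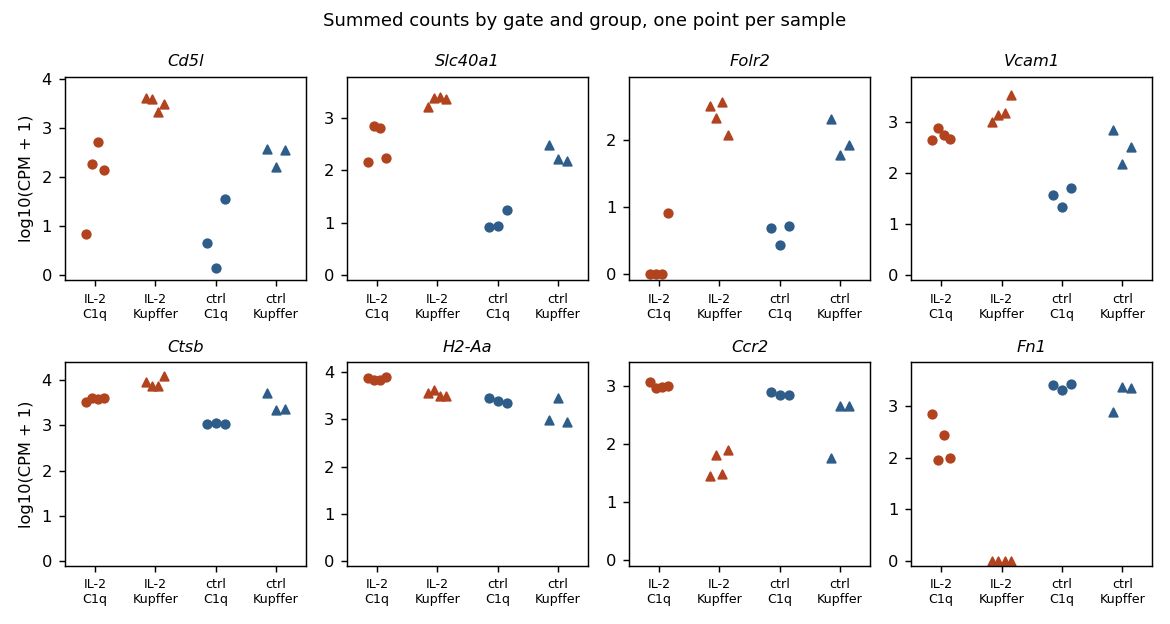
log10(CPM + 1) of 8 genes by gate and group with keratin-high barcodes left out, 1 point per sample (circles C1q gate, triangles Kupffer gate, orange IL-2/CD25, blue control). Cd5l, Slc40a1, Folr2 and Vcam1 are higher in the Kupffer gate of either group on average, Ccr2 is lower there, and Fn1 lies at 0 in the Kupffer gate of all 4 IL-2/CD25 samples.

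The fourth comparison asked whether the IL-2/CD25 difference was the same in both gates, which the rule did not use. The planned fit needed 10 cells in each gate and had no IL-2/CD25 sample, so the test of the interaction used the limit of 5 cells without keratin-high barcodes. It called 10 of 4368 genes (0.229%), all with a difference that was more positive, or less negative, in the C1q gate than in the Kupffer gate, and 0 in the other direction. In simulated counts this fit found 8.2% of 2-fold and 47.8% of 4-fold interactions. Genes that were not called can therefore not be read as having the same difference in both gates. At an unadjusted p under 0.05 edgeR found 340 genes, and DESeq2 called 9 in the first direction and 1 in the other. Leaving out 1 sample at a time gave 5 to 43 calls, with 43 without control replicate 2, 33 without IL-2/CD25 replicate 2, 18 without control replicate 1 and 5 without IL-2/CD25 replicate 1. Fcgr2b, the inhibitory antibody receptor, averaged 708 CPM in the C1q gate and 70.6 CPM in the Kupffer gate of IL-2/CD25 samples, and 815 and 527 CPM in those gates of controls (interaction log2 2.76, SE 0.46, edgeR adjusted p = 0.00607). Its IL-2/CD25 mean was far below the control mean in the Kupffer gate, while the C1q gate means were close. The Kupffer gates of the groups also differed in monocyte genes and Cd5l. Fn1 averaged 1792 CPM in that of controls and 0 CPM in that of IL-2/CD25 samples. With each cell thinned and keratin-high barcodes kept, Vcan was detected there in 24.7% of control and 0% of IL-2/CD25 cells. Ccr2 was detected in 28.7% ± 30.1 and 5.00% ± 10.0, and Cd5l in 31.8% and 88.75%. The part of this in the interactions was not tested. S100a6 averaged 471 CPM in the C1q gate and 72.8 CPM in the Kupffer gate of IL-2/CD25 samples, and 2736 and 2343 CPM in those gates of controls (interaction log2 2.47, SE 0.44, edgeR adjusted p = 0.00851). Apoe averaged 14985 CPM in the C1q gate and 14400.0 CPM in the Kupffer gate of IL-2/CD25 samples, and 1421 and 4789 CPM in those gates of controls (interaction log2 1.75, SE 0.30, edgeR adjusted p = 0.00691): its IL-2/CD25 means were close in both gates, and its control mean was lower in the C1q gate. Plet1, a surface protein of some macrophages and epithelia, averaged 202 CPM in the C1q gate and 7.47 CPM in the Kupffer gate of IL-2/CD25 samples, and 91.7 and 119.9 CPM in those gates of controls (interaction log2 5.51, SE 0.94, edgeR adjusted p = 0.00691), resting on 1 UMI in the IL-2/CD25 Kupffer gate. These 4 genes kept their call in all 7 fits that left out a sample. The other six, Retnla, Fabp4, Fn1, Gpr171, Selenop and Sorl1, lost it in at least 1 such fit.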

How the data were processed

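Single-cell UMI counts from 10x 3′ v3.1 libraries of 7 samples were used as the authors deposited them, as unnormalised counts per the file headers. Cell Ranger 7.0.0 and bcl2fastq 5.0.1 appear in the submitters' processing notes. No genome build of the counts is given in the sources used here, and promoter coordinates come from the RefSeq table alone. The 26 gene lists (372 genes), the gates and the named-gene rule were chosen with earlier results of these data known.

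Counts were summed per sample and gate, needing 10 cells, and tested with edgeR 4.0.16 (R 4.3.3; quasi-likelihood, TMM scaling, filterByExpr, Benjamini-Hochberg), leaving out the genes of the gates. DESeq2 1.42.0 was an alternative. The sample was a block only between gates. Sample shares were tested by exact permutation, two-sided. Named genes were, per comparison and direction, up to 12 (interaction 6) with an adjusted p under 0.05, a mean of 50 CPM or more in the higher group and no overlap between groups (between gates, 1 direction in every sample), by fold, leaving out mitochondrial, ribosomal, immunoglobulin, haemoglobin and unnamed genes and those over 3 times higher outside both gates. Doublets were called by similarity to simulated pairs (scikit-learn 1.9.0; 5.80 to 8.35% of passing barcodes) and kept. Leaving out keratin-high barcodes, the 5-cell limit and thinning each cell after the gate were chosen after seeing the data. The edgeR steps were also run on simulated counts, whose levels and spread were taken from these data. Intervals, floors and CPM of few UMIs cover counting error only. Python 3.11.15, numpy 2.4.6, scipy 1.17.1 and pandas 2.3.3 were used, and figures were drawn with matplotlib 3.10.9. Some genes of the lists are not reported here.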

Additional observations from a re-analysis of the deposited data

Results flagged for a closer look

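Among 36 named genes tested for a sample far from the rest of its group, 4 had one among the IL-2/CD25 samples, and chance marks about 1 group in 20. For Dnase1l3 the gap of 1 sample to its nearest neighbour was 0.858 of the group's range, with 42.6, 156, 58.3 and 42.1 CPM in the IL-2/CD25 samples. For Birc5 it was 1.0, with 0, 0, 0 and 3.51 CPM, which is 1 UMI in replicate 4. For Chil3 it was 0.849, with 97.3, 7.42, 16.6 and 21 CPM, replicate 1 being the high one. For Top2a it was 0.905, with 3.04, 14.8, 4.16 and 3.51 CPM, replicate 2 being the high one on 5 UMIs over the group.

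In 10 genes the IL-2/CD25 difference was not the same in the C1q gate and in the Kupffer gate, by the interaction term of edgeR with an adjusted p under 0.05. The Kupffer gates of the groups also differed in monocyte genes, as given above. The interaction log2 values were 2.76 for Fcgr2b, 5.51 for Plet1, 1.75 for Apoe and 2.47 for S100a6, whose levels are given above. Selenop had 1.90, with 1059 CPM in the C1q gate and 1265 CPM in the Kupffer gate of IL-2/CD25 samples, and 95.2 and 438 CPM in those gates of controls. Fabp4, a fatty acid carrier, had 6.92, with 104 CPM in the C1q gate and 3.98 CPM in the Kupffer gate of IL-2/CD25 samples, and 45.3 and 240.3 CPM in controls, and lost its call without IL-2/CD25 replicate 2. Retnla had 13.50, Fn1 11.30, Gpr171 10.74 and Sorl1 10.44. These 4 genes had 0 UMIs in the 26 IL-2/CD25 cells of the Kupffer gate, so their fitted values depend on the prior count and are no bound. Retnla reached 1548 CPM in the C1q gate of IL-2/CD25 replicate 1, with 0 in the other 3, and was lost without that sample or without control replicate 3. Fn1, Gpr171, Selenop and Sorl1 lost their calls in 3 or 4 of 7 fits that left out a sample.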

How the results depend on the processing

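The direction of both share differences held under every setting run. The difference in C1q gate share of barcodes, IL-2/CD25 minus control in percentage points, was -7.81 to -6.97 with 1 sample left out, where the smallest possible exact p is 0.0667 or 0.1, so no such test could pass. With barcodes thinned before the gate, this difference for the C1q gate was -5.09 (exact permutation p = 0.0286). The difference in its share of both gates was -18.6 to -13.1 with 1 sample left out, -16.6 with 10 C1q UMIs required and -15.3 with barcodes thinned before the gate, both with exact permutation p = 0.0571. Genes called between the groups in the C1q gate, 3409 by edgeR with all barcodes, numbered 5394 with no low-count filter (1865 higher, 3529 lower), 746 with barcodes thinned before the gate, 701 with each cell thinned after it, 683 with that and keratin-high barcodes left out, and 206 with summed UMIs thinned to the smallest library (170 higher, 36 lower). Without keratin-high barcodes 2649 genes were called, against 683 with each cell thinned and 111 with summed UMIs thinned (94 higher, 17 lower), where far fewer genes pass the filter. Between the gates, 152 genes in 2 controls compare with 52 by DESeq2, 93 with no replicate block, 69 with 10 C1q UMIs, 77 with 5 cells per gate, and 0 with summed UMIs thinned (edgeR, 98 at an unadjusted p under 0.05). The fit on 5 cells without keratin-high barcodes, 141 genes, gave 77 with these barcodes kept, 215 by DESeq2, 199 with no replicate block, 40 with each cell thinned and the limit lowered to 3 cells, and 77 to 203 with 1 sample left out. The interaction gave 5 to 43 genes with 1 sample left out and 1 with each cell thinned and the limit lowered to 3 cells. The cause of these shifts was not tested.

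In the labels, same-numbered samples share only a number. Their deviations correlated at -0.076, -0.076 and -0.017, against -0.069 to 0.084 for differently numbered pairs. So few values cannot exclude a pairing. With the replicate number as a block (replicate block), 2936 genes were called with all barcodes and 2099 without keratin-high barcodes. Of 417 values of single named genes under the settings, 411 kept their call and direction and 6 lost the call. Without keratin-high barcodes 250 of 260 did and 10 lost it, 6 of these with summed UMIs thinned and 4 being Slpi without each IL-2/CD25 sample. None of either set reversed. The named genes were picked from the same data by their call, their fold and no overlap between groups, so these counts are no independent check. Some planned fits could not be fitted: between the gates those without control replicate 1 or 3, with barcodes thinned before the gate, with macrophage markers required or with 20 cells, and the interaction at 10 cells under any setting. With 116 IL-2/CD25 cells, depth limits every gene at a few CPM in that group, where 3 UMIs over the group equal 3.03 CPM.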
